A study of Mus musculus with 12 samples.

Results

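Livers of male 129S6/SvEv mice, labelled wild type (WT), were compared between zeitgeber time 22 (ZT22) and zeitgeber time 10 (ZT10), where zeitgeber time counts hours from lights on. The comparison took the 6 male libraries of the 12 in the series, 3 at each time, by their labelled sex and time, and used all 15079 of their cells out of 31003. Livers were perfused with collagenase, and the cells were enriched for hepatocytes by a spin, frozen, thawed and made into single-cell libraries with 10x Genomics Chromium v3. No treatment, age or light schedule is given in the labels. The labels call the libraries replicates and do not say that each came from its own animal, so the p-values below measure the spread between libraries, which may be partly technical. Each cell name carries a code for its library, and the labels do not say what the start of the code stands for. The libraries of a time do not all share a code start, but no code start holds both times. Time therefore cannot be told apart from whatever differs between code starts.

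The liver runs on a daily programme. A transcriptional clock works in hepatocytes, in which activators switch on repressors of their own activity, and feeding and hormones add rhythms of their own. Genes of glucose, lipid, bile acid and drug metabolism are known to rise and fall over the day, which is why livers taken 12 hours apart are often set against each other.

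Rows of the deposited count table carry numbers, and none of the files used here ties a number to a gene. A feature therefore appears below by its row number and no gene is named. Only the 2 leading features of each direction are singled out. For the same reason the labelled hepatocyte enrichment could not be checked against marker genes, and no sequence is shown. The exception is a block of 13 adjacent features whose summed counts equal the deposited mitochondrial percent in every cell. These are the mitochondrial features, and their group can be described.

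A count here is a unique molecular identifier (UMI), which stands for 1 captured transcript. The male libraries held 50944505 UMIs, between 2284202 in ZT10 replicate 2 and 14654630 in ZT10 replicate 1, and from 494 to 3949 cells. The median depth per cell ran from 2290 to 3617 UMIs. Of the 15055 different barcode sequences, 24 occurred in more than 1 male library. ZT22 replicate 2 stood apart in its deposited intronic fraction, the share of a cell's signal that lies in introns, with a median of 0.510 against 0.215 to 0.319 in the other male libraries. When all cells were clustered, some clusters had leading features far higher than in all other cells; these were set apart from the rest, the main cell population, and stay unnamed. They held 3.89% of the cells of ZT22 replicate 2 and 14.3% to 26.3% of those of the other male libraries. Of 7372 features with a mean of at least 10 counts per 1e6 UMIs, 449 were at least 2-fold lower in this library than in each of the other 5, and 23 were at least 2-fold higher. In the other libraries these numbers were at most 12 and 33. Results are therefore given for all cells and again for the 8894 cells with an intronic fraction under 0.3, of which this library supplied 373.

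The male liver differed between the times in a small set of features. Of 11923 features tested in all cells, 218 passed, which is 1.83% of those tested. At ZT22, 134 were higher (1.12% of those tested) and 84 were lower (0.705%). Every one of the 218 changed by at least 2-fold, 93 by at least 4-fold and 33 by at least 8-fold. The median log2 fold change was 1.87 among those that rose and -1.80 among those that fell, while the median size over all features tested was 0.26. With 3 libraries a group, only changes that are large against the spread can pass, so the sizes of the called features are set in part by the test. UMIs were summed over the cells of each library and the 6 sums were tested with edgeR's quasi-likelihood test at a Benjamini-Hochberg adjusted p of 0.05. Levels below are counts per 1e6 UMIs after scaling by the TMM method, written CPM. A level is an amount of RNA in the summed cells, so fewer expressing cells and less RNA per cell cannot be told apart in it.

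In all 218 of these features the 3 libraries of one time lay entirely above the 3 of the other. That pattern was far more common than a call, since 18.1% of all features tested showed it, 9.73% with ZT22 higher and 8.4% with ZT10 higher. In 14 of the features that rose and 9 of those that fell, the mean of the lower time was under 1 CPM.

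Time differences were also counted with the clusters set apart left out. In the main cell population, 276 of 11153 features were called (2.47%), 156 higher at ZT22 (1.4%) and 120 higher at ZT10 (1.08%). Of the 218 called in all cells, 211 were among them. The main population held 12933 of the 15079 male cells, so this overlap is a description. What the clusters set apart add to the time difference was not tested.

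The called features spread over several levels of abundance. Among features with a mean of 10 to 100 CPM, 128 of 5985 were called (2.14%), and among those of 100 to 1000 CPM, 31 of 1295 (2.39%). Among those of 1 to 10 CPM, 59 of 4524 were called (1.30%), with a higher median size of 2.43 on the log2 scale against 1.70 and 2.24 in the next higher tiers. Of the 92 features at 1000 CPM or more, edgeR called 0. In that tier 5 had an unadjusted p under 0.05, and the other tools, DESeq2 and limma-voom, called 3 and 0. At the overall share of 1.83%, few calls are to be looked for among 92 features, so nothing is read from the 0. In the cells with an intronic fraction under 0.3, edgeR called 1 of 97 features at that level, with 19 at an unadjusted p under 0.05, and DESeq2 called 6.

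**Figure D1:**
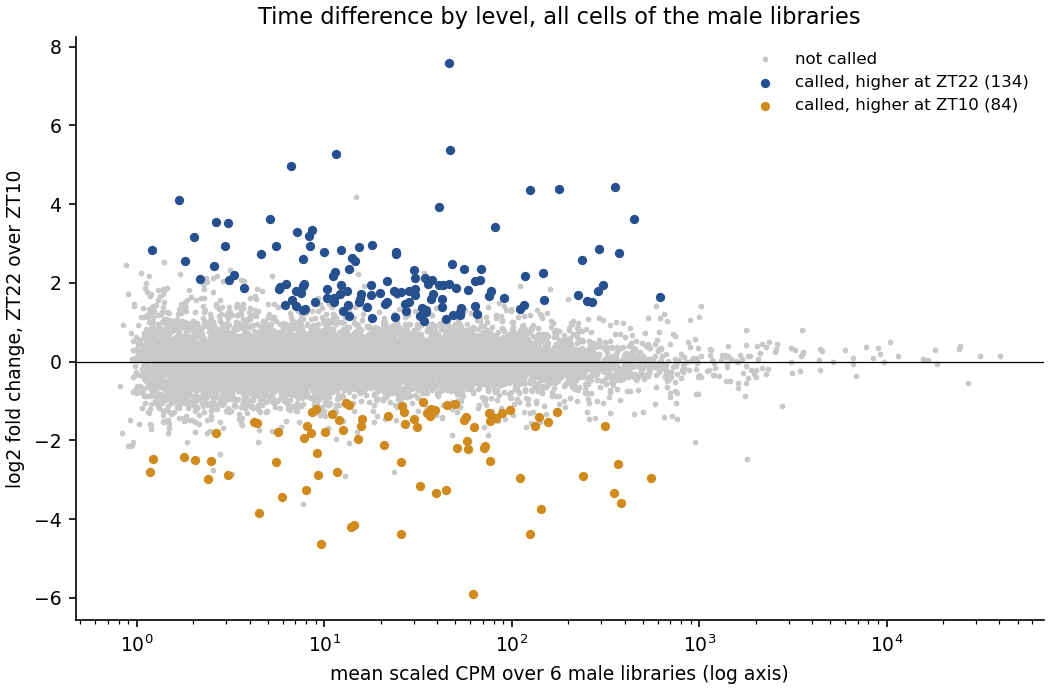
Log2 fold change of ZT22 over ZT10 (vertical axis) against the mean CPM over the 6 male libraries (horizontal axis, log scale), 1 point per feature tested in all cells. The 134 features called higher at ZT22 are blue, the 84 called higher at ZT10 are orange and the others grey; no called point lies beyond 1000 CPM.

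The called features held a small part of the RNA, and the balance between them turned over. Those higher at ZT22 took 0.285%, 0.293% and 0.273% of all UMIs in the ZT10 libraries and 1.03%, 1.57% and 1.05% in the ZT22 libraries. Those higher at ZT10 took 0.844%, 1.02% and 0.742% at ZT10 and 0.161%, 0.2005% and 0.197% at ZT22. These shares follow from the choice of the features and carry no test. The highest share of the rising features belonged to ZT22 replicate 2.

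Among features that rose, the largest difference in level was that of feature 12734. It stood at 66.6, 20.3 and 114 CPM in the ZT10 libraries and at 516, 1448 and 538 CPM in the ZT22 libraries. The intron-rich ZT22 replicate 2 was the highest by far. The groups did not overlap, which the choice of the feature required. The log2 fold change was 3.62 ± 0.65 (SE, n = 3 and 3, edgeR adjusted p = 0.021). It was 2.94 without ZT22 replicate 2 (adjusted p = 0.010) and 4.24 without ZT10 replicate 3 (adjusted p = 0.022). The call was lost without ZT10 replicate 1 (adjusted p = 0.136) and without ZT10 replicate 2 (adjusted p = 0.062).

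Feature 12833 rose by more in fold and varied less. It was counted at 35.4, 35.3 and 24.1 CPM at ZT10 and at 750.0, 672 and 617 CPM at ZT22. The 3 libraries of each time lay close together, with ZT22 replicate 2 between its fellows. The log2 fold change was 4.43 ± 0.35 (SE, n = 3 and 3, edgeR adjusted p = 0.00017), a 21.6-fold difference.

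Feature 1129 showed the largest difference in level among those that fell. It was at 801, 1281 and 863 CPM in the ZT10 libraries and at 123, 113 and 140 CPM in the ZT22 libraries. The shallow ZT10 replicate 2 was the highest, and the 3 ZT22 libraries were nearly alike. The log2 fold change was -2.97 ± 0.34 (SE, n = 3 and 3, edgeR adjusted p = 0.0016).

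Feature 1523 was also highest in ZT10 replicate 2. Its levels were 569, 977 and 566 CPM at ZT10 and 43.1, 69.9 and 63.0 CPM at ZT22. The log2 fold change was -3.58 ± 0.38 (SE, n = 3 and 3, edgeR adjusted p = 0.0013). None of these features had a library on the side of the other time, which the rule that chose them required.

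**Figure D2:**
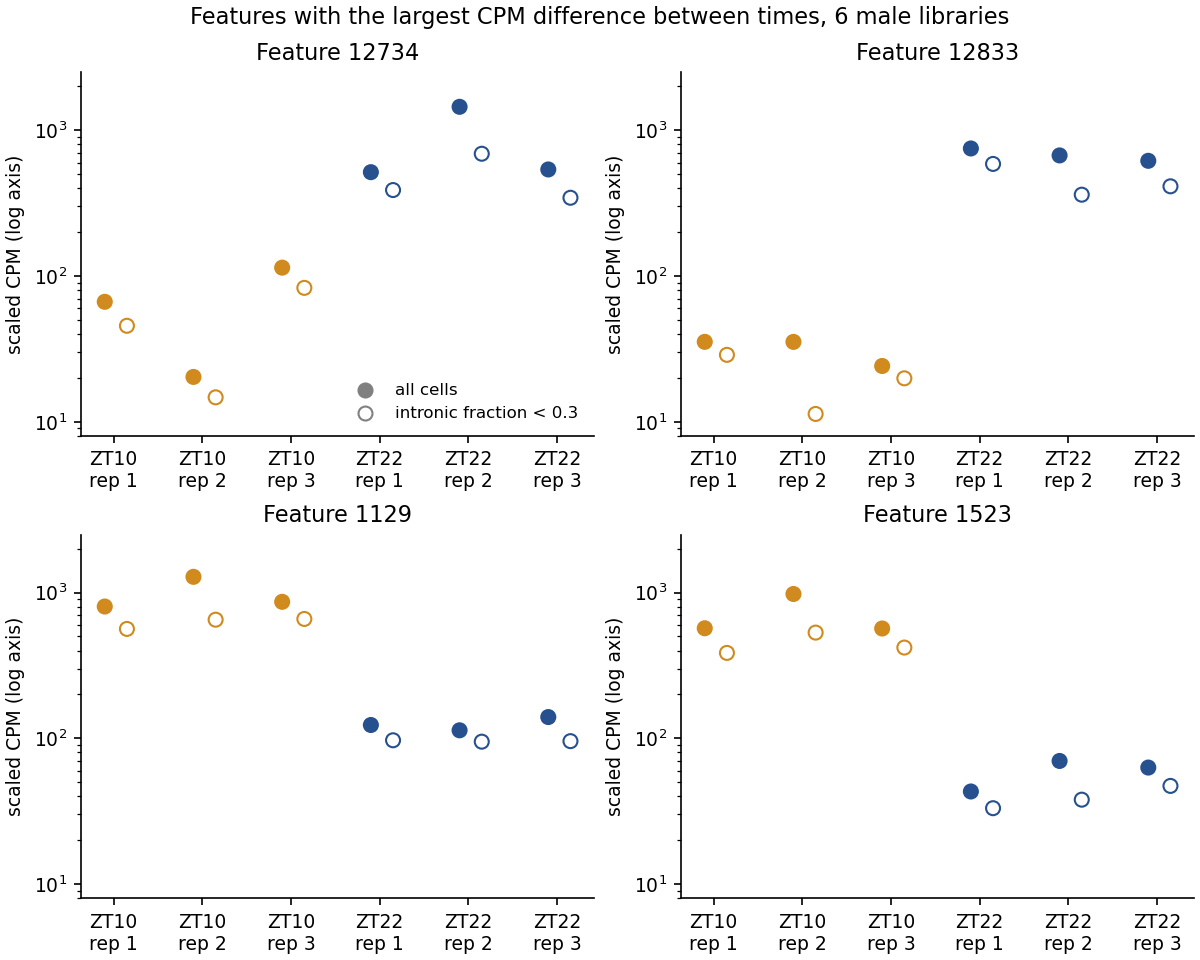
CPM (vertical axis, log scale) of the features with the 2 largest rises and the 2 largest falls in each of the 6 male libraries (horizontal axis; ZT10 orange, ZT22 blue). Filled points are all cells and open points are cells with an intronic fraction under 0.3, scaled separately. In both, all ZT22 points lie on one side of all ZT10 points, which the choice of the features required in all cells.

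The next 8 features in each direction, ranked in the same way, had differences of 261 to 642 CPM among those that rose and 152 to 575 CPM among those that fell. Their log2 fold changes had sizes of 1.52 to 4.38 and 1.54 to 4.37. All 16 were also called in the cells with an intronic fraction under 0.3, as were 88.5% of all features called in all cells. Those cells are a part of all cells, so the repeated calls are a description. In a fit of the female libraries alone, 7 of the 8 in each direction had the same sign as in males. In each direction 4 of the 8 were called there. Of all features tested in females, 4.9% were called and 50.2% had a positive log2 fold change.

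The same features could be followed in the share of cells with at least 1 UMI. Cells were thinned to 1000 UMIs each so that depth did not set the share, which left out 72 cells of lower depth, 66 of them at ZT10. Feature 12833 was found in 2.51% to 3.86% of the thinned cells of the ZT10 libraries and in 37.7% to 48.1% of those of the ZT22 libraries. Without thinning the ranges were 6.59% to 11.7% and 68.3% to 75.7%. Feature 12734 was found in 2.05% to 10.1% of thinned cells at ZT10 and 31.4% to 75.1% at ZT22, with ZT22 replicate 2 at 75.1% (exact 95% interval 73.4 to 76.7) and the other ZT22 libraries at 31.4% and 35.1%.

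For the features that fell, the shares went the other way. Feature 1129 was found in 51.0% to 59.2% of thinned cells at ZT10 and 9.65% to 11.2% at ZT22, against unthinned shares of 78.9% to 86.2% and 25.1% to 29.8%. Feature 1523 was found in 37.6% to 47.95% at ZT10 and 4.53% to 7.97% at ZT22. No cell type that should lack these features is known here, so the share that free RNA gives was not tested. In the clusters set apart, feature 12833 was at 12.8 to 24.6 raw counts per 1e6 UMIs at ZT10 and 173 to 506 at ZT22. In the main population it was at 24.8 to 40.1 and 636 to 780. The rise was thus counted in both kinds of cells, from only 12 to 54 UMIs per ZT10 library in the clusters set apart.

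Restriction to cells with an intronic fraction under 0.3 asked what remains once the intron-rich cells are gone. The number of called features went up although fewer cells were used: 403 of 11255 features tested passed (3.58%), 247 higher at ZT22 (2.19%) and 156 higher at ZT10 (1.39%). The called differences were smaller, with a median log2 fold change of 1.38 among those that rose and -1.27 among those that fell, and 322 of the 403 reached 2-fold. The common coefficient of variation between libraries of a group, as edgeR estimates it, was 0.281 in all cells and 0.198 in the restricted cells. ZT22 replicate 2 supplied 788284 UMIs and ZT10 replicate 2 826028 to this fit, against at least 5797428 in each of the other 4 libraries.

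The restricted cells are a part of all cells, so the overlap of the calls is a description. Of the called features, 193 were called in both, 88.5% of the 218 and 47.9% of the 403, each with the same sign. A further 210 were called in the restricted cells alone. All 210 had the same sign in all cells, 204 of them at an unadjusted p under 0.05. Their median size was 1.13 on the log2 scale in the restricted cells and 1.08 in all cells, so that the estimates were close while the spread differed. Only 16 features tested in both were called in all cells alone. The libraries of the 2 times did not overlap in 393 of the 403, against 20.6% of all features tested in these cells. A call favours features without overlap, so this count is a description too. ZT22 replicate 2 still stood apart there, with 158 of 7125 features at least 2-fold lower than in each of the other 5 libraries. Its restricted cells had a median intronic fraction of 0.267, against 0.193 to 0.240 in the other male libraries. Their median depth was 1923 UMIs, against 2600 to 3699.5.

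**Figure D3:**
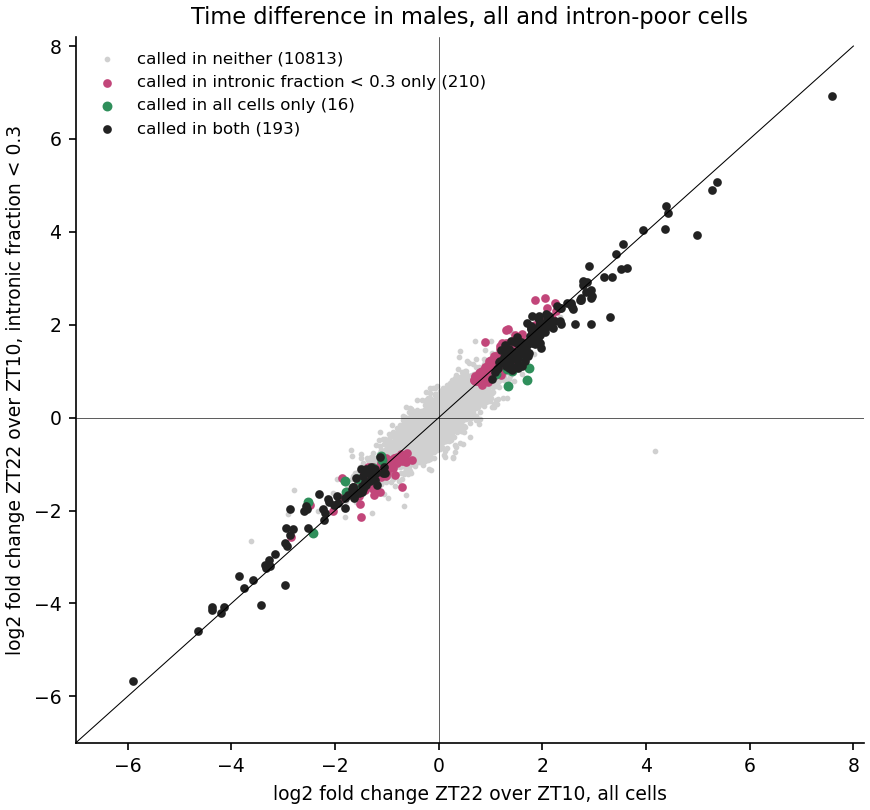
Log2 fold change of ZT22 over ZT10 in all cells (horizontal axis) and in cells with an intronic fraction under 0.3 (vertical axis) for the features tested in both, male libraries. Black marks the 193 features called in both, red the 210 called in the restricted cells only and green the 16 called in all cells only; the diagonal line marks equal values, and called points lie along it.

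The features given by number were called in the restricted cells as well. Feature 12833 had a log2 fold change of 4.40 ± 0.33 there, feature 1129 one of -2.70 ± 0.23 and feature 1523 one of -3.48 ± 0.26 (SE, n = 3 and 3, edgeR adjusted p at most 1.2e-05). Feature 12734 had 3.21 ± 0.45 (SE, edgeR adjusted p = 0.00081). Its level in ZT22 replicate 2 was 690.0 CPM in these cells, still above the 389 and 344 CPM of the other ZT22 libraries.

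The called features were also compared between intron-rich and intron-poor cells inside libraries. In the 5 male libraries other than ZT22 replicate 2, cells at or above an intronic fraction of 0.3 were set against cells under it. Of the 134 features that rose, 52 (38.8%) were higher in the intron-rich cells of all 5 libraries, and of the 84 that fell, 47 (56.0%), against 33.9% of all features tested. Features lower in the intron-rich cells of all 5 were 4 and 0, against 10.3% of all features tested. All 4 features given by number were higher in intron-rich cells in 5 of 5 libraries, with medians of 1.13 to 1.29 on the log2 scale. The share higher in all 5 was near that of all features tested among the features that rose, and above it among those that fell. The median log2 ratio of intron-rich over intron-poor cells was above that of all features tested in both directions. It was 0.51 among features that rose, 0.52 among those that fell and 0.20 over all features tested. The part of the intron contrast in the time difference was not tested beyond the restriction above.

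The number of calls changed when a single library was left out. Each omission leaves 3 libraries against 2, so its count is not on the same footing as that of all 6 libraries. Why the counts differ between the omissions was not tested. Without ZT22 replicate 2, 384 features were called in all cells, 213 of them among the 218 and 300 among the 403. The coefficient of variation was then 0.201. Leaving out any other library lowered the count: to 80 without ZT10 replicate 1, 108 without ZT10 replicate 2, 115 without ZT10 replicate 3, 106 without ZT22 replicate 1 and 128 without ZT22 replicate 3. In the restricted cells the count was 421 without ZT22 replicate 2, close to the 403 with it. It was 221 without ZT10 replicate 1, 376 without ZT10 replicate 2, 337 without ZT10 replicate 3, 174 without ZT22 replicate 1 and 236 without ZT22 replicate 3. No feature called in all cells under any of these omissions had the opposite sign with all 6 libraries, among those tested there.

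**Figure D4:**
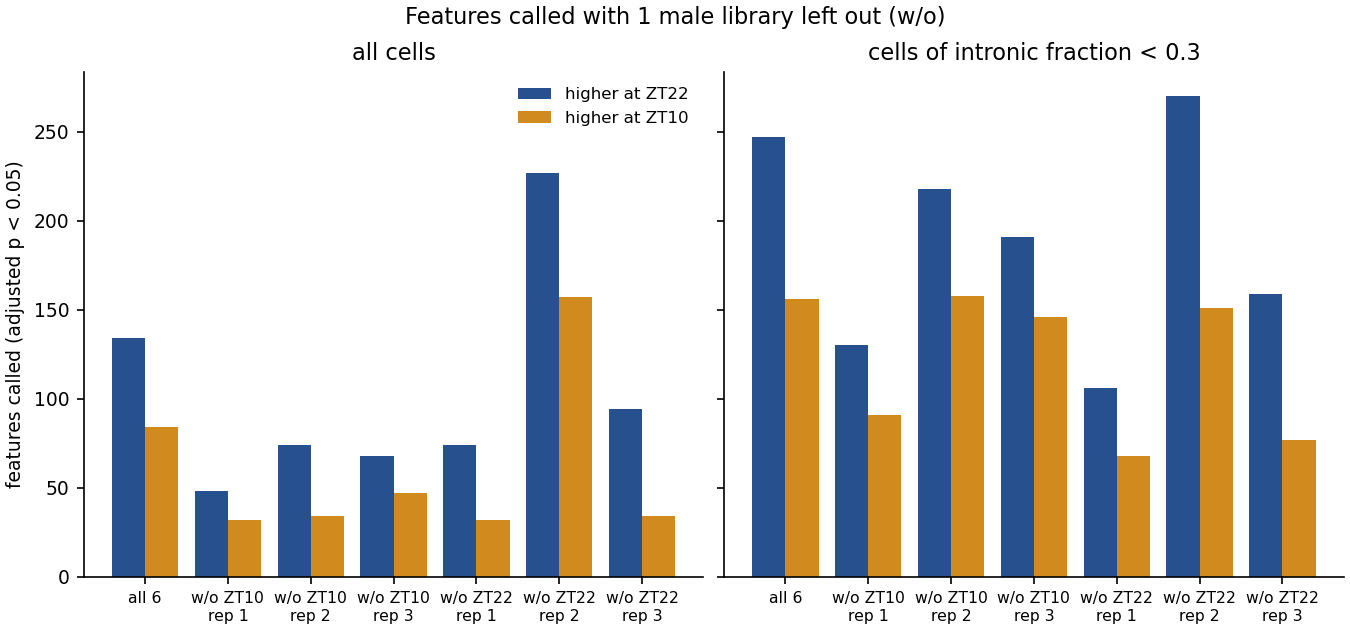
Number of features called (adjusted p under 0.05, vertical axis) with all 6 male libraries and with each library left out in turn (horizontal axis), for all cells (left) and cells with an intronic fraction under 0.3 (right). Blue bars are features higher at ZT22 and orange bars features higher at ZT10; in all cells the count rises only when ZT22 replicate 2 is left out.

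The mitochondrial features are the one group with a known identity. The mitochondrial genome encodes 13 proteins, all of them subunits of the respiratory chain or of ATP synthase, and hepatocytes are rich in mitochondria. Together these features took 13.1%, 12.9% and 12.3% of all UMIs in the ZT10 libraries and 15.4%, 16.9% and 13.6% in the ZT22 libraries. All 3 ZT22 libraries lay above all 3 ZT10 libraries. The means were 12.8% ± 0.416 and 15.3% ± 1.64 (SD, n = 3 each), a difference of 2.55 percentage points. The exact two-sided permutation p was 0.1, the smallest that 3 libraries against 3 can give, so the design cannot pass a threshold of 0.05. The median mitochondrial percent per cell overlapped between the times, at 9.67 to 14.02 at ZT22 and 9.47 to 13.2 at ZT10.

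The pooled share separated the times in some sets of cells and not in others. In cells with at least 3000 UMIs the share was 12.6% to 14.5% at ZT10 and 15.5% to 19.2% at ZT22. In cells under 3000 UMIs it was 9.17% to 14.5% at ZT10 and 8.33% to 15.7% at ZT22, and the ZT22 minus ZT10 difference of the means was -1.01 percentage points. In the cells with an intronic fraction under 0.3 the groups again did not overlap, at 12.9% to 14.1% and 15.6% to 19.5%. In cells at or above that fraction they overlapped, at 9.04% to 13.4% and 9.27% to 16.6%, with a difference of 0.211 percentage points. The main population showed no overlap, at 12.5% to 13.6% and 14.2% to 16.8%. The clusters set apart did, at 7.62% to 14.4% and 6.64% to 19.9%, with a difference of 1.07 percentage points. The exact permutation p was 0.1 in each of the sets without overlap (n = 3 each). It was 0.8 in the cells under 3000 UMIs, 0.8 in those at or above the intronic limit and 0.9 in the clusters set apart (exact permutation, n = 3 each).

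**Figure D5:**
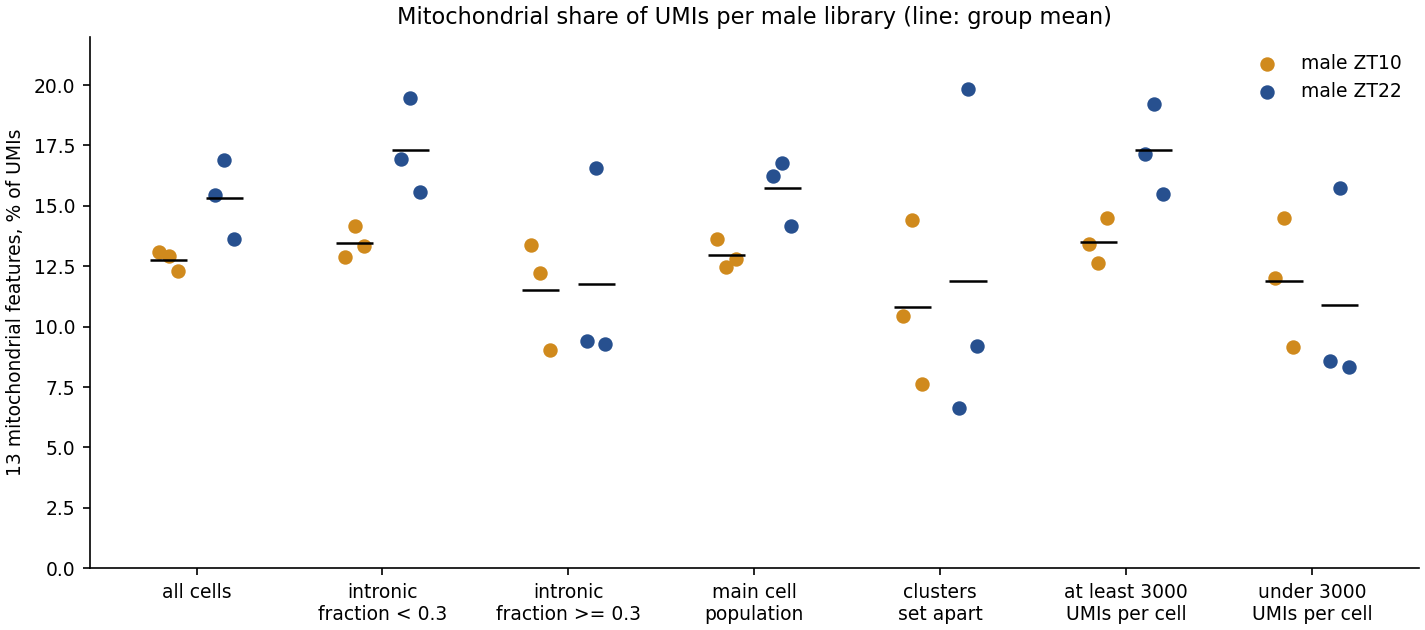
Share of all UMIs in the 13 mitochondrial features (percent, vertical axis) per male library, for 7 sets of cells (horizontal axis; ZT10 orange, ZT22 blue, black lines group means). The ZT22 libraries lie above the ZT10 libraries in 4 sets, and the groups overlap in the cells with an intronic fraction of at least 0.3, the clusters set apart and the cells under 3000 UMIs.

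Taken one by one, none of the 13 mitochondrial features was called. edgeR, DESeq2 and limma-voom each called 0 in all cells, and 1 had an unadjusted p under 0.05 in edgeR. All 13 had a positive log2 fold change, from 0.083 to 0.79 with a median of 0.32, while 50.1% of all features tested were positive. Without ZT10 replicate 3, 12 were positive, and without ZT22 replicate 1, 11 were. In the cells with an intronic fraction under 0.3 edgeR again called 0, with 8 at an unadjusted p under 0.05 and a lowest adjusted p of 0.078. There the 13 log2 fold changes ran from 0.33 to 1.04 with a median of 0.55, while 47.4% of all features were positive. The 13 features share the same cells and the same libraries and are not independent of each other.

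Whether the time difference of males differs from that of females was tested with all 12 libraries in 1 fit. edgeR called 0 of 12505 features for the interaction (0% of those tested), with 739 features under 0.05 before adjustment. The count was 12 in DESeq2 and 0 in limma-voom. For the 4 features given by number, the adjusted p of the interaction was between 0.592 and 0.855. By edgeR and limma-voom, no time difference was therefore shown to be particular to males. The 12 features called by DESeq2 alone are not described here. A p that misses the threshold does not show that the sexes are alike.

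The 6 female libraries are separate from the male ones, but within each time some female and male libraries share a code start. In females, too, no code start holds both times, so the female values do not tell time and code start apart either, and the same holds for the interaction. In a fit of their own, 584 of 11915 features were called (4.9%), 294 higher at ZT22 (2.47%) and 290 higher at ZT10 (2.43%). Of the 218 features called in males, 130 were also called in females, 59.6% of the male and 22.3% of the female calls. Of the 134 that rose in males, 130 were tested in females, 127 had the same sign and 82 were called. Of the 84 that fell, 81 were tested, 77 had the same sign and 48 were called. None was called with the opposite sign. The median log2 fold changes were 1.86 in males and 1.27 in females for those that rose, and -1.80 and -1.20 for those that fell. The features were chosen on the male values, which alone favours larger values in males. The female count was 433 without female ZT10 replicate 1, 349 without ZT10 replicate 2 and 1040 without ZT10 replicate 3. It was 205, 161 and 235 without female ZT22 replicates 1, 2 and 3.

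Among the features given by number, the female levels moved the same way. In females, feature 12833 was at 64.3 ± 40.3 CPM at ZT10 and at 626 ± 93.2 CPM at ZT22 (SD, n = 3 each). The male levels were 31.6 ± 6.47 and 679.7 ± 66.8 CPM. Feature 1129 was at 808 ± 14.9 and 199 ± 58.1 CPM in females, against 982 ± 261 and 126 ± 13.3 CPM in males. Feature 12734 was at 116 ± 36.1 and 337 ± 49.7 CPM in females, against 67.0 ± 46.9 and 834 ± 532 CPM in males. Feature 1523 was at 188 ± 76.5 and 72.8 ± 20.6 CPM in females, against 704 ± 236 and 58.7 ± 13.9 CPM in males. Feature 12734 had a log2 fold change of 1.54 ± 0.24 in females and 3.62 ± 0.65 in males, and feature 1523 one of -1.37 ± 0.31 and -3.58 ± 0.38 (SE, n = 3 and 3). The interaction for these had an edgeR adjusted p of 0.842 and 0.592. The mitochondrial share did not separate the times in females, at 7.01% to 17.9% at ZT10 and 12.1% to 16.9% at ZT22. The difference was 2.79 percentage points, with an exact permutation p of 0.7 (n = 3 each). All 13 mitochondrial features had a positive log2 fold change in females as well, with a median of 0.43 against 0.32 in males. Of all features tested in females, 50.2% were positive. edgeR called 0 of the 13 in females and 0 for the interaction.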

How the data were processed

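The deposited count table gives raw UMI counts of 31003 cells over 18326 numbered features, and a second deposited file describes each cell. Cell Ranger 6.1.2, Seurat and the build mm10 are named in the submitters' processing notes, without their roles. Gene annotation and cell filters are not given in the sources used here. Per the file headers, the deposited metadata also hold an intronic fraction, whose denominator is not stated, and the percent of UMIs in mitochondrial and in caspase features. Column sums equalled the metadata totals in all 31003 cells. The cells' samples come from the metadata's sample titles, and 0 columns belonged to no sample.

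UMIs were summed per library and tested with edgeR 4.0.16 (TMM scaling, filterByExpr by group, quasi-likelihood test, Benjamini-Hochberg threshold 0.05), checked on simulated data. The SE is the log2 fold change divided by the square root of edgeR's F. DESeq2 1.42.0 and limma-voom 3.58.1 were alternatives. Measures with 1 value per library were tested by exact permutation (20 assignments of 3 and 3). The main cell population leaves out clusters (scanpy 1.11.5) whose 10 leading features had a median fold above 8 over other cells. Clusters were not named, and no doublets were removed.

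The features given by number had an adjusted p under 0.05, no overlap of libraries, at least a 2-fold change and the 2 largest CPM differences in each direction. The members, this rule and the settings were chosen with earlier results of these data known. Lists of clock, lipid or cell type genes need names and were not used. Library totals ran from 2284202 to 14654630 UMIs. Intervals cover counting error only.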

Additional observations from a re-analysis of the deposited data

Results flagged for a closer look

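The deposited caspase percent enters no comparison of the report. It amounts to 67 UMIs in 60 cells of the 6 male libraries. Of these, 47 were counted at ZT10, in ZT10 replicates 1 (26) and 2 (21), and 20 at ZT22, in ZT22 replicates 1 (3) and 3 (17). ZT10 replicate 3 and ZT22 replicate 2 had 0. No library was screened as an outlier, since the groups hold 3 each.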

How the results depend on the processing

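The male time count of 218 in all cells was 389 in DESeq2, 340 without the filter on low counts and 403 in cells with an intronic fraction under 0.3, and 80 to 384 with 1 library left out. It was 276 in the main cell population, 178 in thinned libraries and 229 without the second library part of ZT10 replicate 2, an alternative chosen after seeing the data. The count of 403 was 694 without the filter, 237 in thinned libraries (6371 features tested), 417 and 324 at limits of 0.4 and 0.25, and 174 to 421 with 1 library left out. The interaction count of 0 was 12 in DESeq2 and 0 with any 1 library left out. The female count was 161 to 1040 with 1 library left out. Thinning left fewer features to test; the cause of the other changes was not tested.

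The ZT22 minus ZT10 difference in mitochondrial share was 1.76 to 3.40 percentage points with 1 library left out, and turned to -1.01 in cells under 3000 UMIs, a split chosen after seeing the data. No setting that kept them called any of the 13 mitochondrial features. In 62 of 64 refits, the features given by number stayed on the same side of the threshold with the same sign. Both exceptions are feature 12734 without ZT10 replicate 1 or 2.

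The replicate block gave 316 features for time in males, 503 in cells with an intronic fraction under 0.3, 544 in females and 0 for the interaction. Same-numbered male libraries of the 2 times deviated from their group means with correlations of -0.12, 0.50 and 0.54 over 7372 features. ZT10 replicate 3 and ZT22 replicate 1, which carry different numbers, also reached 0.54. Whether the numbers pair the libraries was not tested. ZT10 replicate 2, the shallowest library, limits what rare features can show.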
